A study of Bos taurus with 20 samples.

Results

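RNA of 3 macrophage marker genes, CD68, CSF1R and MSR1, was measured in bovine udder tissue in an experimental E. coli mastitis. Of 6 marker genes sought by gene symbol in the probe annotation of the Affymetrix GeneChip Bovine Genome Array, these 3 had probe sets, 1 each for CD68 and CSF1R and 3 for MSR1. That gave 5 probe sets of 24016 that are not array controls. CD163, MRC1 and MARCO are also classical markers of resident macrophages, but no probe set carried their symbols, and they were not analysed here.

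The arrays measured mammary tissue from 20 glands of 5 mid-lactating Holstein Friesian cows, 1 array per gland. The right front gland of each cow was neither challenged nor treated (NC), and the other 3 glands received 100 cfu of a cefapirin-susceptible E. coli strain through the teat canal. The left front gland was left untreated (CNT). One rear gland got infusions of the cephalosporin cefapirin at 300 mg each (CF), and the other the same dose together with 20 mg of the glucocorticoid prednisolone (CFPD). Cows 4 and 5 were sampled at 24 h after challenge, after infusions at 4 and 12 h. Cows 1, 2 and 3 were sampled at 48 h, after further infusions at 24 and 36 h. Each group therefore held 2 glands at 24 h and 3 glands at 48 h, and the time points hold different cows. The position in the udder and the group cannot be told apart for NC and CNT glands. CF and CFPD glands were all rear glands. Their differences from NC and CNT glands therefore cannot be told apart from those of rear against front glands. The sample labels place the tissue in the cisternal region of the gland and the study's methods in the parenchyma, and the sources used here do not settle which holds. The NC gland shared the animal with infected glands and is no sample of a healthy cow.

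Values are log2 signals of the robust multiarray average (RMA), on which array medians ranged from 7.12 to 7.31. The milk protein genes CSN1S1, CSN2, CSN3 and LALBA lay at 14.1 or above on all 20 arrays, at the top of the scale. Which rear gland was CF and which CFPD is in doubt for cows 2 and 5, since the supplementary fold changes of the study match the deposited arrays better if these glands trade labels. The mean of CF and CFPD glands (below, treated glands) does not depend on that label and is given beside each treatment result. Below, "called" means that limma's Benjamini-Hochberg adjusted p was under 0.05 and that the groups differed by 1 or more on the log2 scale.

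Macrophages reside in the milk, ducts and stroma of the udder, take up bacteria and cell debris, and release cytokines and chemokines when they sense bacterial products. Monocytes from blood enter inflamed tissue and differentiate into further macrophages. CSF1R is the receptor for the growth factors CSF1 and IL34, which keep monocytes and macrophages alive. CD68 is a heavily glycosylated protein of lysosomes and endosomes, abundant in phagocytes. MSR1 is the class A scavenger receptor at the cell surface, which binds modified lipoproteins and bacterial products. In RNA of whole tissue, a change in the number of such cells and a change in RNA per cell cannot be told apart.

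The markers did not move together. CD68 and CSF1R were higher in the CNT than in the NC gland of all 5 cows, whereas the brightest MSR1 probe set was lower in the CNT gland of all 5 cows. In glands that received cefapirin, with or without prednisolone, no called difference from NC glands was found in CD68 or CSF1R, although CD68 in the CFPD gland of cow 3 lay 2.50 above the NC gland of that cow on the log2 scale.

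CD68 had the widest range of the 5 probe sets. At 24 h, its level was 12.41 in the CNT gland of cow 4 and 9.69 in that of cow 5, against 8.11 and 7.14 in their NC glands. At 48 h, the CNT glands of cows 1, 2 and 3 had levels of 11.31, 10.54 and 10.20, and the NC glands 8.24, 8.27 and 6.95. Every CNT gland thus lay above every other gland of the experiment, of which the highest was the CFPD gland of cow 3 at 9.45. Such a separation over both time points was seen in 2.59% of the 13486 probe sets tested at either time.

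**Figure D1:**
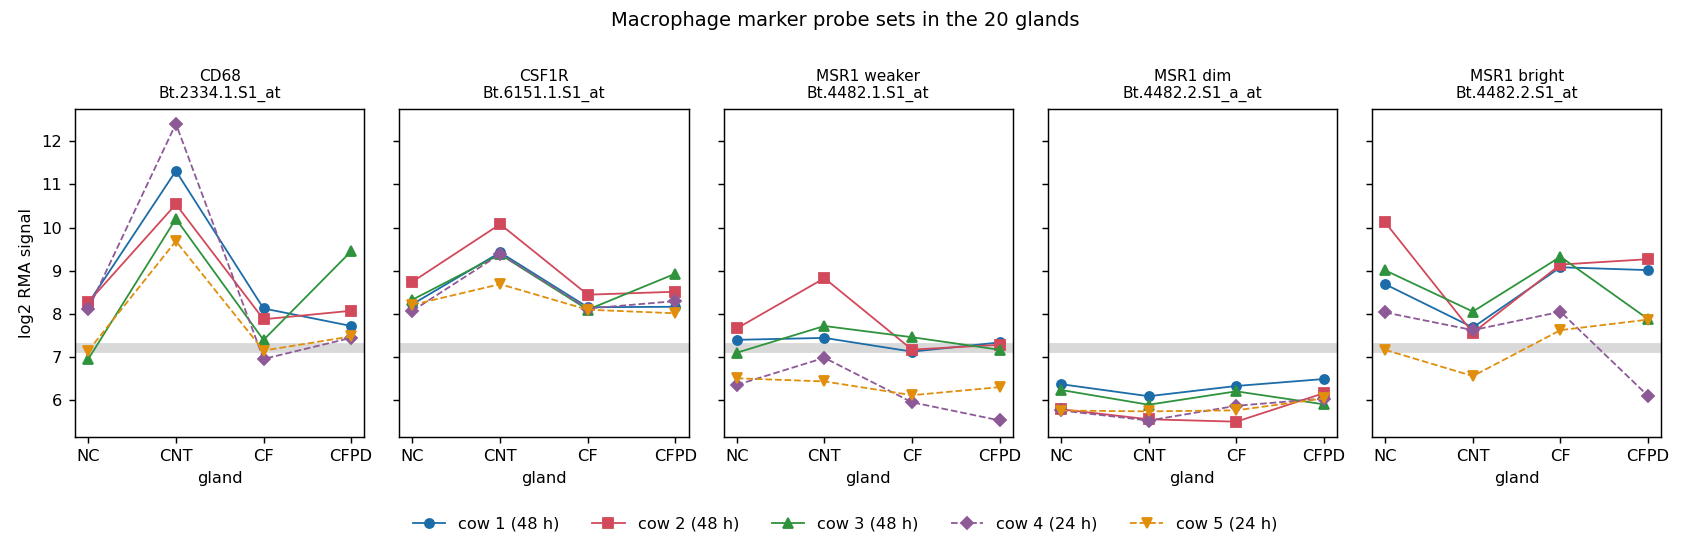
Log2 RMA signal (y axis) of the 5 probe sets in the NC, CNT, CF and CFPD gland (x axis) of each cow. Lines join the glands of 1 cow, dashed for the 2 cows sampled at 24 h and solid for the 3 cows sampled at 48 h, and the grey band spans the array medians from 7.12 to 7.31. CD68 and CSF1R peak in the CNT gland of every cow, and the bright MSR1 probe set dips there in most cows.

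The log2 difference of CD68 between CNT and NC glands was 3.42 at 24 h (standard error 0.78, n = 2 per group), a 10.7-fold difference that was not called (adjusted p = 0.0709, limma). It was called with the cow as a block (adjusted p = 0.017, limma). Its size rests largely on cow 4, since it was 2.54 when that cow was left out and 2.06 when its CNT gland alone was. Without cow 5 it was 4.30, and without the CNT gland of cow 5 it was 4.78. Such fits leave 1 CNT array at 24 h and lose the spread between CNT glands, so only sizes are given. The 48 h difference was 2.86 (standard error 0.48, n = 3 per group), 7.28-fold, and was called (adjusted p = 0.0107, limma), but not without cow 1 (0.103) or cow 2 (0.0848). Averaged over both time points in 1 fit of all arrays, CD68 was 3.14 higher in CNT glands (standard error 0.47, adjusted p = 0.000659).

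CSF1R moved the same way by less. At 24 h, its level was 9.38 and 8.69 in the CNT glands of cows 4 and 5, and 8.07 and 8.21 in their NC glands. At 48 h, the CNT glands of cows 1, 2 and 3 had 9.42, 10.08 and 9.38, and the NC glands 8.23, 8.75 and 8.33. Within each time point all CNT glands lay above all others, as did 17.9% of the probe sets tested at 24 h and 9.18% of those at 48 h. Across the time points the ranges met, since the CNT gland of cow 5 (8.69) lay below the NC gland of cow 2 (8.75) and the CFPD gland of cow 3 (8.93).

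The difference between CNT and NC glands was 0.90 for CSF1R at 24 h (standard error 0.24, adjusted p = 0.101, limma) and was not called. Its size was 1.24 without the CNT gland of cow 5, 0.48 without cow 4 and 0.55 without the CNT gland of cow 4. At 48 h it was 1.19 (standard error 0.25, adjusted p = 0.025, limma), 2.29-fold, and was called. That call rests on few arrays. It was lost without any of the 3 cows (adjusted p from 0.103 to 0.139), without the NC gland of cow 1 (0.0923) or cow 3 (0.091), without cow 2's CNT gland (0.0683), and by a margin of fold after quantile normalization (0.9999). Averaged over both time points, the difference was 1.04 (standard error 0.19, adjusted p = 0.0024), also not called after quantile normalization (0.91) or without cow 4 (0.84, adjusted p = 0.109).

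The 3 probe sets of MSR1 differed in level and in direction. The first, called bright here, exceeded the array median on 18 of 20 arrays. The second, called weaker, did so on 8 arrays, too few at 24 h to be tested there. The third, called dim, lay between 5.50 and 6.49, did so on none and was not tested. Their identifiers label the plot of levels in the 20 glands. RefSeq lists 2 transcripts of bovine MSR1, and which of these each probe set matches was not examined here.

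For the bright MSR1 probe set, the CNT glands of cows 4 and 5 had levels of 7.62 and 6.56 at 24 h, against 8.03 and 7.17 in the NC glands. In the 48 h cows, the levels were 7.69, 7.56 and 8.05 in the CNT glands of cows 1, 2 and 3, and 8.69, 10.12 and 9.01 in their NC glands. CNT lay below NC within every cow, by between 0.41 and 2.56. At 24 h the 2 groups overlapped, since the CNT gland of cow 4 exceeded the NC gland of cow 5. At 48 h the CNT glands overlapped with the range of all other glands (highest CNT level 8.05, lowest other level 7.88).

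On average, this probe set was lower in CNT than in NC glands by a log2 value of -0.51 at 24 h (standard error 0.62, adjusted p = 0.696, limma). The 48 h difference was -1.51 (standard error 0.39, adjusted p = 0.0539, limma), just outside the threshold. It was called with the cow as a block (adjusted p = 0.0265), after median centring (0.0493) and with the treatment labels of the rear glands exchanged in cows 2 and 5 (0.0487). Cow 2, whose NC gland had the highest level of all 20, showed the largest difference of the 5 cows, and without that cow the difference at 48 h was -0.98 (adjusted p = 0.288).

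The weaker MSR1 probe set went the other way. Its level in the CNT gland exceeded that in the NC gland by 0.04, 1.17, 0.62 and 0.63 in cows 1 to 4 and fell short of it in cow 5 (-0.07). The groups differed by 0.61 at 48 h (standard error 0.30, adjusted p = 0.238, limma), and 0.19 without the CNT gland of cow 2 (0.632). The dim MSR1 probe set differed by between -0.34 and -0.02 in the 5 cows, the same sign as the bright one, at signals below the median of every array. The MSR1 probe sets therefore differ in direction, and none was called in the fit without the block on the values as deposited and labelled.

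Of the member probe sets tested, 0 of 3 were called in CNT against NC glands at 24 h, where 1.62% of all 13004 probe sets tested were called higher and 0.769% lower. At an unadjusted p under 0.05, CD68 and CSF1R passed at 24 h, as did 20.7% of all probe sets. At 48 h 2 of 4 were called, both higher, against 2.15% called higher and 0.515% lower among 13000. Averaged over both time points these were again CD68 and CSF1R, against 3.4% of all probe sets called higher and 0.882% called lower.

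**Figure D2:**
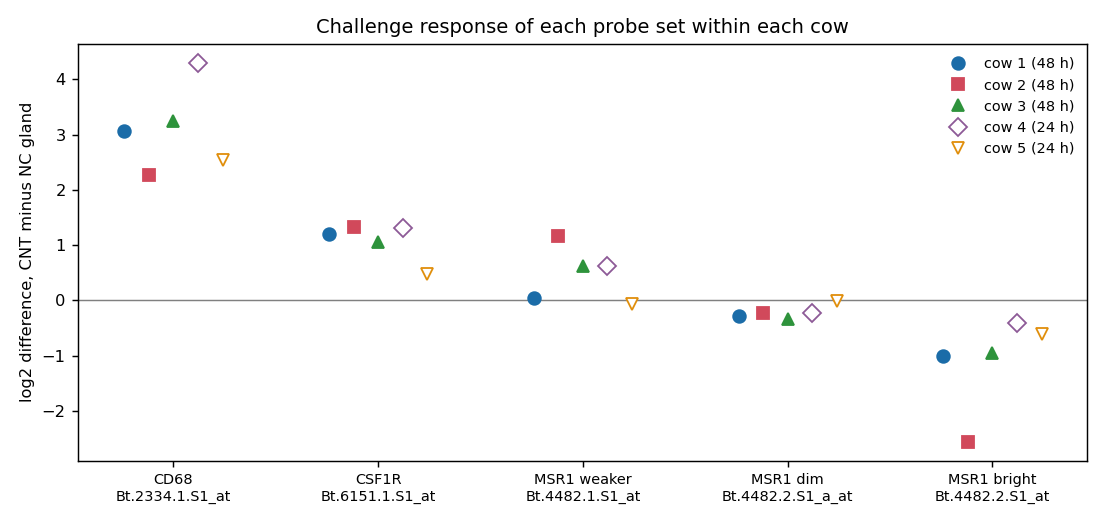
Log2 difference between the CNT and the NC gland of the same cow (y axis) for each probe set (x axis), filled symbols for the 3 cows at 48 h and open symbols for the 2 cows at 24 h. All 5 cows lie above 0 for CD68 and CSF1R and below 0 for the bright MSR1 probe set.

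CD68, higher in CNT glands, and MSR1, lower there, can be set side by side within each cow. The CNT minus NC difference of CD68 was 3.07, 2.27, 3.25, 4.30 and 2.54 in cows 1 to 5, and that of the bright MSR1 probe set was -1.0, -2.56, -0.95, -0.41 and -0.61. The former exceeded the latter by between 3.15 and 4.83 in log2 units, which follows from choosing markers of opposite sign and was not tested. Cow 4 had the largest difference in CD68 and the smallest in MSR1, and cow 2 the smallest in CD68 and the largest in MSR1. For CSF1R the differences were 1.20, 1.33, 1.05, 1.31 and 0.48, smallest in cow 5. In every cow, CD68 differed by more than CSF1R, with a gap of between 0.93 and 2.99.

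Between 24 and 48 h, the response to challenge did not differ detectably. The CNT minus NC difference at 48 h less that at 24 h was -0.56 for CD68 (95% interval -2.54 to 1.43, adjusted p = 0.93, limma) and 0.30 for CSF1R (-0.50 to 1.10, adjusted p = 0.899). For MSR1 it was -1.0 by the bright MSR1 probe set (-2.58 to 0.59, adjusted p = 0.808) and 0.33 by the weaker MSR1 probe set (-0.65 to 1.32, adjusted p = 0.911). None of the 13486 probe sets was called for such a difference, and 1052 had an unadjusted p under 0.05. The intervals are wide, as this compares 2 cows with 3 other cows.

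Mean levels of both tested MSR1 probe sets were higher in the 48 h cows, though not called with the labels as given. In NC glands, the bright MSR1 probe set was higher at 48 h than at 24 h by 1.67 (standard error 0.53, adjusted p = 0.0817, limma) and the weaker MSR1 probe set by 0.96 (standard error 0.33, adjusted p = 0.108), neither of which was called. In CNT glands, the bright MSR1 probe set was higher by 0.68 (standard error 0.53, adjusted p = 0.555, limma). The weaker MSR1 probe set was higher there by 1.29 (standard error 0.33, adjusted p = 0.0517), called only with the labels of cows 2 and 5 exchanged (0.0479). At 24 h the weaker MSR1 probe set did not pass the filter. It entered the fit of all arrays only through the 48 h arrays, where its level was higher. Its differences between the times are therefore not free of that choice. CD68 and CSF1R differed by 0.20 and 0.29 in NC glands (adjusted p = 0.905 and 0.589). Cow and time cannot be told apart in these levels, and the sources used here do not state if RMA was run on all 20 arrays at once. Of all probe sets, 2.37% were called between the NC glands of the time points, and 1.41% between the CNT glands.

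CD68 was lower in both treated glands than in the CNT gland of every cow. At 24 h, the CF glands of cows 4 and 5 had levels of 6.96 and 7.15 and the CFPD glands 7.44 and 7.48. Among the 48 h cows, the CF glands of cows 1, 2 and 3 had 8.13, 7.87 and 7.39, and the CFPD glands 7.72, 8.07 and 9.45. All but the CFPD gland of cow 3 lay within the range of the NC glands (6.95 to 8.27).

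Treated glands together were lower in CD68 than CNT glands by a log2 value of -3.79 at 24 h (standard error 0.68, adjusted p = 0.0291, limma) and -2.58 at 48 h (standard error 0.42, adjusted p = 0.00658). Both were called, against 2.51% and 2.17% of all probe sets called lower. The call at 24 h was lost without cow 4 (-2.37, adjusted p = 0.357), without its CNT gland (-2.43, 0.0545) or without any 1 of the 4 treated glands (0.0644 to 0.0749). The call at 48 h was lost without cow 1 (0.0967) or cow 2 (0.0749).

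By single treatment, the 24 h difference of CD68 from CNT glands was -3.99 in CF glands (standard error 0.78, limma adjusted p = 0.0516, called with the cow as a block at 0.0111). In CFPD glands it was -3.59 (standard error 0.78, limma adjusted p = 0.0796, called with the block at 0.0176). Without cow 5 the 2 differences were -5.45 and -4.96, and without its CNT gland -5.35 and -4.95. Without cow 4 they were -2.54 and -2.21, and without its CNT gland -2.63 and -2.23. These fits leave 1 CNT array, so only sizes are given. At 24 h, 1.59% of all probe sets were called lower in CF and 1.04% in CFPD glands. The 48 h difference was -2.89 for CF (standard error 0.48, adjusted p = 0.0108) and -2.27 for CFPD (standard error 0.48, adjusted p = 0.0439), both called, against 1.5% and 1.05% called lower. The CF call was lost without cow 1 (0.123), cow 2 (0.0947) or the CF gland of cow 3 (0.0778). The CFPD call was the less firm. It was lost in 7 of the 9 fits that left out a cow or an array, with values from -2.51 to -1.61 and adjusted p from 0.0508 to 0.261, and also with a filter on the mean (0.0509), median centring (0.0599), quantile normalization (0.0811) or all arrays in 1 fit (0.0569). The arrays whose absence ended it were the CNT glands of cows 1, 2 and 3 and the CFPD glands of cows 1 and 2.

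CSF1R behaved alike at 48 h. Its levels at 24 h were 8.12 and 8.10 in CF and 8.30 and 8.01 in CFPD glands of cows 4 and 5. At 48 h they were 8.15, 8.44 and 8.10 in CF and 8.16, 8.51 and 8.93 in CFPD glands of cows 1, 2 and 3. Every treated gland was below the CNT gland of its cow. Treated glands differed from CNT glands by -0.90 at 24 h (standard error 0.21, adjusted p = 0.056, limma, 0.0208 without the CNT gland of cow 5, and a difference of -0.56 at 0.283 without that of cow 4), and were called lower at 48 h by -1.24 (standard error 0.21, adjusted p = 0.00921), a call lost without any 1 of the 3 cows (0.0626 to 0.0953). CF glands alone were called lower at 48 h (-1.40, standard error 0.25, adjusted p = 0.0142), not so without any 1 of the cows (0.0754 to 0.189) or without the CF gland of cow 1 (0.056) or cow 3 (0.0947). CFPD glands were called only with the cow as a block (-1.09, standard error 0.25, adjusted p = 0.0556, and 0.0123 with the block) or with all arrays in 1 fit (0.0294).

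**Figure D3:**
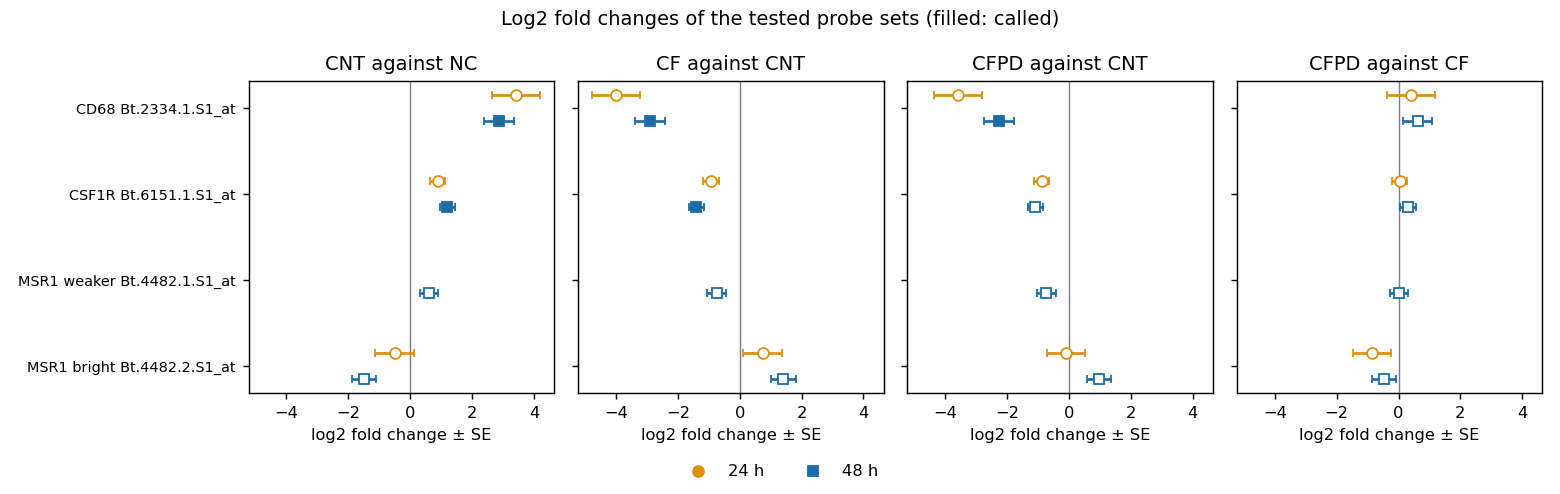
Log2 fold changes with standard errors (x axis) of the 4 probe sets that could be tested (y axis), for 4 comparisons of groups at 24 h (circles) and 48 h (squares). Filled symbols were called. The weaker MSR1 probe set was tested at 48 h alone. CD68 and CSF1R lie right of 0 in CNT against NC and left of 0 in CF and CFPD against CNT, and no symbol is filled in CFPD against CF.

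For MSR1, the treated glands were less uniform. By the bright MSR1 probe set, the CF glands had 8.05 and 7.62 at 24 h (cows 4 and 5) and 9.08, 9.14 and 9.32 at 48 h (cows 1, 2 and 3), above the CNT gland in all 5 cows. The CFPD glands had 6.10 and 7.87 at 24 h and 9.01, 9.27 and 7.88 at 48 h, above the CNT gland in 3 of 5 cows. The 2 exceptions were the CFPD gland of cow 4, with the lowest level of all 20 glands, and that of cow 3.

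At 48 h, treated glands exceeded CNT glands by 1.18 in this probe set (standard error 0.34, adjusted p = 0.0658, limma), which was called with the cow as a block (0.033) or without the CFPD gland of cow 3 (0.0301). The difference was 1.42 for CF (standard error 0.39, adjusted p = 0.087, and 0.0403 with the block) and 0.95 for CFPD (standard error 0.39, adjusted p = 0.229). At 24 h it was 0.74 for CF and -0.11 for CFPD (adjusted p = 0.537 and 0.946), and 0.32 for treated glands together (standard error 0.54, adjusted p = 0.751), of either sign when 1 cow is left out (1.19 without cow 4 and -0.55 without cow 5). The weaker MSR1 probe set was lower in treated than in CNT glands of every cow, by a mean of -0.74 at 48 h (standard error 0.26, adjusted p = 0.11). That mean was -0.31 without cow 2 (0.424) and -0.32 without its CNT gland (0.369).

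The CFPD gland of cow 3 stood apart from the other treated glands of 48 h in CD68, CSF1R and the bright MSR1 probe set. It had the highest CD68 (9.45) and CSF1R (8.93) and the lowest level of the bright MSR1 probe set (7.88) of these 6 glands, each on the side of the CNT glands. By the weaker MSR1 probe set it did not stand apart, at 7.168 against 7.125 to 7.459 in the CF glands of 48 h. Without cow 3, the difference of CD68 between CFPD and CF glands at 48 h turned from 0.62 to -0.10.

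No marker was called between treated and NC glands, nor was any probe set of the array (0% called), and all adjusted p were 1 by limma. At 48 h, 65 of 13000 probe sets had an unadjusted p under 0.05 in this comparison, and at 24 h 231 of 13004. Treated minus NC glands gave -0.37 for CD68 at 24 h (95% interval -1.97 to 1.23) and 0.28 at 48 h (-0.63 to 1.20). For CSF1R the values were -0.01 (-0.51 to 0.49) and -0.05 (-0.52 to 0.42). For the bright MSR1 probe set they were -0.19 (-1.46 to 1.08) and -0.32 (-1.06 to 0.42). The intervals of CSF1R lie within a difference of 1 in either direction, and those of CD68 and the bright MSR1 probe set reach beyond it.

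The response to treatment did not differ detectably between the times either. The treated minus CNT difference at 48 h less that at 24 h was 1.21 for CD68 (95% interval -0.51 to 2.93, adjusted p = 0.826, limma), -0.34 for CSF1R (-1.03 to 0.36, adjusted p = 0.915) and 0.87 for the bright MSR1 probe set (-0.51 to 2.24, adjusted p = 0.858). No marker was called for it, against 0.0519% of all probe sets.

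Prednisolone added to cefapirin gave no called difference either (0% of all probe sets, with 67 at 24 h and 21 at 48 h at an unadjusted p under 0.05). CFPD minus CF glands gave 0.41 for CD68 at 24 h (95% interval -1.44 to 2.26) and 0.62 at 48 h (-0.44 to 1.67). CSF1R gave 0.04 (-0.53 to 0.62) and 0.30 (-0.24 to 0.85), and the bright MSR1 probe set -0.85 (-2.32 to 0.62) and -0.46 (-1.32 to 0.39). All 3 adjusted p were 1 at both time points, and the intervals of CD68 and MSR1 include differences over 1 in size. The doubt over which rear gland was which in cows 2 and 5 applies to each of these values.

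Genes that work with the markers were followed as lists. In each list, a gene stands for its brightest probe set, and the median of all probe sets tested was -0.01 at 24 h and 0.13 at 48 h in CNT against NC glands, which is the background for the medians below. For the counts it is the share of all probe sets called, 1.62% higher and 0.769% lower at 24 h and 2.15% higher and 0.515% lower at 48 h. Of 5 tested genes of the CSF1 receptor system and related growth factors, none was called at 24 h and 1 was higher at 48 h, with a median difference of 0.81 and 0.31. The called gene was TYROBP, a membrane adaptor that passes on signals of myeloid receptors (1.93 at 48 h, standard error 0.32, adjusted p = 0.0102, limma). The ligand CSF1 differed by 1.05 at 24 h and 1.36 at 48 h (adjusted p = 0.0707 and 0.146), and the ligand IL34 by -0.10 and 0.31 (adjusted p = 0.812 and 0.2).

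Among 9 further genes of monocytes and macrophages, none was called at 24 h (median 0.99) and 3 were higher at 48 h (median 1.10). These were FCER1G, the signalling chain of Fc receptors (1.31, adjusted p = 0.0302), SIRPA, an inhibitory receptor that binds CD47 (1.29, adjusted p = 0.0337), and MPEG1, a pore-forming protein of phagocytes (1.24, adjusted p = 0.0482). CD14, which presents lipopolysaccharide to TLR4, differed by 1.63 at 24 h and 0.10 at 48 h (adjusted p = 0.0879 and 0.899).

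Of the genes typical of resident tissue macrophages, 0 of 11 were called at 24 h (median 0.09) and 3 of 13 were higher at 48 h (median 0.92). These were HMOX1, which degrades haem (1.94, adjusted p = 0.0346), F13A1, the A subunit of coagulation factor XIII (1.87, adjusted p = 0.0279), and VSIG4, a complement receptor (1.77, adjusted p = 0.0253). C1QA, C1QB and C1QC, which together form complement C1q, differed by 0.26, 0.09 and 0.26 at 24 h and by 1.34, 0.92 and 1.11 at 48 h, none of which was called (adjusted p at 48 h from 0.0864 to 0.171). Differences in this list ranged from -0.65 to 1.58 at 24 h and from -0.69 to 1.94 at 48 h. At 24 h the log2 of its summed signal was lower in CNT (13.49 to 13.72) than in NC glands (13.94 to 13.95). The sum is ruled by the brightest genes. The mean log2 level of the list at 24 h was 8.34 in the CNT and 8.05 in the NC gland of cow 4, and 7.98 and 7.99 in those of cow 5. At 48 h the log2 of the summed signal was higher in CNT (13.89 to 14.11) than in NC glands (13.43 to 13.52), as was the mean log2 level in each cow. Whether any gene responded differently at 48 h than at 24 h was tested in the fit above, which called none.

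CD68 is a lysosomal protein, and 12 further lysosome genes were tested. LGMN, an asparaginyl endopeptidase, was called higher at 24 h (1.38, adjusted p = 0.0278). At 48 h 3 cathepsins were higher, CTSH (1.99, adjusted p = 0.00481), CTSS (1.18, adjusted p = 0.0462) and CTSZ (1.02, adjusted p = 0.05, just under the threshold before rounding). The medians of the list were 0.38 and 0.53. LAMP1, a structural protein of the lysosome membrane in all cells, differed by 0.23 and 0.45 (adjusted p = 0.46 and 0.137).

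MSR1 is a scavenger receptor, and 9 others were tested. At 24 h CD36, a fatty acid transporter also abundant in the milk-secreting epithelium, was lower (-1.22, adjusted p = 0.0154), and SCARB1, a receptor for high-density lipoprotein, was higher (1.02, adjusted p = 0.0463). At 48 h none was called (limma), and the differences ranged from -1.04 to 2.46. The medians were -0.20 and 0.30.

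Of 6 chemokines that attract monocytes, 3 were higher at 24 h, namely CCL2 (3.31, adjusted p = 0.0364), CCL4 (2.88, adjusted p = 0.0141) and CCL5 (1.79, adjusted p = 0.0141), with a median of 2.01. At 48 h CCL8 alone was called (1.58, adjusted p = 0.045), with a median of 0.86.

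**Figure D4:**
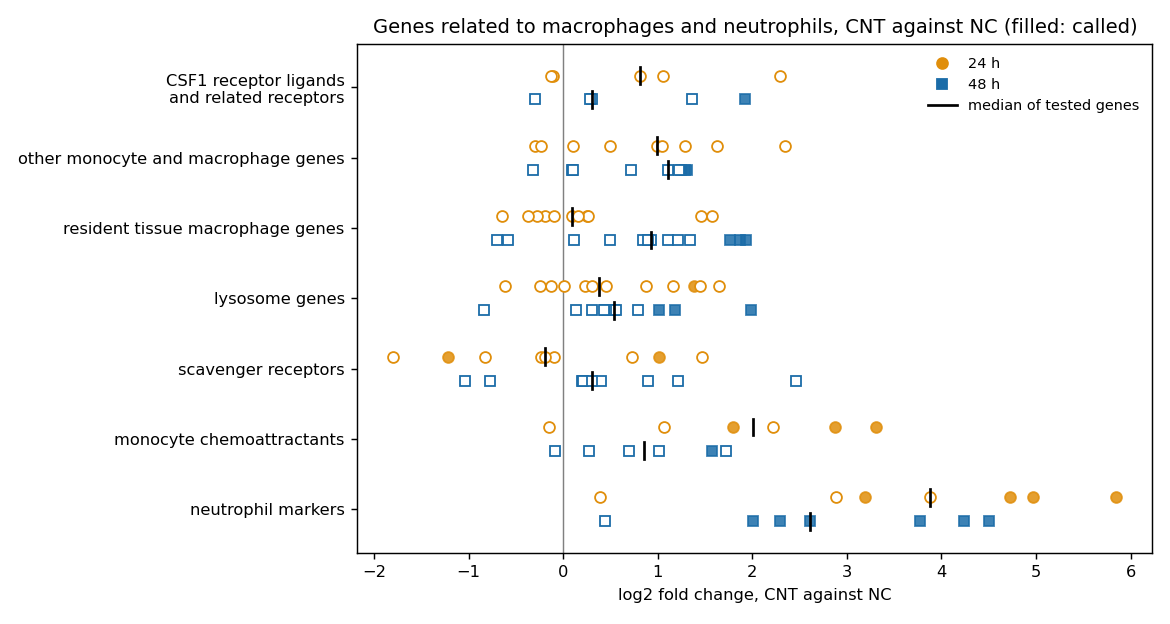
Log2 fold change in CNT against NC glands (x axis) of the tested genes of 7 lists (y axis) at 24 h (circles) and 48 h (squares), filled where called, with a black tick at the median of each list. Each gene is 1 symbol. The median of the neutrophil list lies farthest to the right at both time points.

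Among markers of other cell types, those of neutrophils moved with CD68 and CSF1R. Of 7 neutrophil genes tested, 4 were called at 24 h and 6 at 48 h, all higher in CNT glands, with medians of 3.87 and 2.61, and differences of 5.85 and 3.77 for the chemokine receptor CXCR1, 4.96 and 4.50 for S100A12, 4.73 and 4.24 for S100A8, and 3.19 and 2.61 for S100A9. The log2 of the summed signal of the neutrophil list lay between 15.3 and 16.2 in CNT glands and between 14.3 and 15.0 in all others. Neutrophils also hold lysosomes and express some genes of the lists above, TYROBP and FCER1G among them. The part of these cells in the values of CD68 and CSF1R was not tested. No marker of T and NK cells (8 tested at 24 h, 10 at 48 h), B and plasma cells (1 and 2), endothelium (4 and 4), fibroblasts (7 and 7) or adipocytes (1 and 1) was called in CNT against NC glands, 1 of 9 epithelial genes was lower at 24 h (KRT19, -1.31, adjusted p = 0.0419), and no dendritic cell gene was bright enough to be tested.

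Treated glands showed the reverse for several of these genes. Against CNT glands, 2 of 9 monocyte and macrophage genes were lower at 24 h and 4 at 48 h, 1 of 11 and 3 of 13 resident macrophage genes, and 3 and 2 of 12 lysosome genes. Of all probe sets, 2.51% were called lower at 24 h and 2.17% at 48 h. Of the 7 neutrophil genes, 6 were lower at each time point. Among markers of the other cell types, NKG7 of T and NK cells was lower at 48 h (-1.10, adjusted p = 0.0432, limma), 1 of 10 tested in a list with a median of -0.65, and KRT19 of the epithelium was higher at 24 h (1.03, adjusted p = 0.038), 1 of 9. These comparisons share the CNT glands with those against NC glands, so the 2 sets of values are not independent.

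Over the 20 arrays, the genes with the pattern most like CD68 were TYROBP (Pearson r = 0.981), SLC7A7, an amino acid transporter subunit (0.971), and MMP19, a matrix metalloproteinase (0.965), among 8671 probe sets with 1 symbol. Most like CSF1R were FERMT3, which activates integrins of blood cells (0.958), PYCARD, the adaptor of inflammasomes (0.947), and BASP1 (0.942). CD68 and CSF1R had r = 0.867 with each other. Without the 5 CNT arrays, these values were 0.902, 0.834 and 0.886 for the former 3 genes, 0.848, 0.799 and 0.772 for the latter 3, and 0.689 between CD68 and CSF1R.

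The pattern of MSR1 was another one. The bright MSR1 probe set was most like CAVIN1, a coat protein of caveolae (r = 0.854), TMEM9 (0.832) and DNAJB5 (0.811), and its r with CD68 was -0.25 over 20 arrays and 0.23 over the 15 arrays without CNT glands. The bright and the weaker MSR1 probe set had r = 0.484 with each other over 20 arrays and 0.868 without the CNT arrays. Levels of both were on average higher in the 48 h than in the 24 h cows, which enters these coefficients. No coefficient was computed within a time point or within CNT glands. All these arrays share 5 cows and 2 time points, and the coefficients describe these arrays alone.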

How the data were processed

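Per the labels, total RNA of mammary tissue with an RNA integrity number above the study's limit was amplified, biotin labelled and hybridised, 1 array per gland. The authors made the log2 values with RMA in the affy package (versions not given in the sources used here), and these were used as deposited.

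Groups, cows and times came from the sample labels, which number the cows otherwise. Of 24128 probe sets, 112 controls were left out, and those above the array median (over the other probe sets) on at least 2 arrays at 24 h (13004) or 3 at 48 h (13000) were tested. Each time point was fitted on its own, all 4 groups in 1 model, in limma 3.58.1 (R 4.3.3), without a cow term since the study states none, with Benjamini-Hochberg adjustment over all tested probe sets. Differences between times, and averages over them, came from 1 fit of all 20 arrays (13486 probe sets). The fits were tested on simulated data that held no cow effect. There, in CNT against NC glands, a log2 change of 1 was called in 23.7% of cases at 24 h and 39.4% at 48 h. A log2 change of 2 was called in 75% and 89.2%.

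Glands with the same cow number come from the same animal. Their deviations from the group means correlated by 0.521 on average at 24 h (12 pairs, 0.331 to 0.701) and 0.444 at 48 h (18 pairs, 0.0649 to 0.832).

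Named were every member probe set, up to 4 called genes per list and time point in CNT against NC glands by size, and the 3 genes with the highest Pearson r to each marker. Other list genes named (CSF1, IL34, CD14, C1QA, C1QB, C1QC, LAMP1) were chosen after their values were seen. Members and gene lists were chosen with earlier results of these data known. Symbols come from the array's annotation, where 13318 probe sets carry 1 symbol, 86 carry several and 10724 carry none. No p-value was computed over a list. Precision is limited by the few arrays. Alternatives were the cow as a block, other filters, quantile normalization, median centring, a robust trended prior, no fold minimum, exchanged labels, 1 fit of all arrays, and leaving out each cow or array.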

Additional observations from a re-analysis of the deposited data

How the results depend on the processing

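Counts of called marker probe sets are given here with the probe sets tested at that time, 3 at 24 h and 4 at 48 h. With the cow as a block, the count rose from 0 to 1 (CD68) in CNT against NC, CF against CNT and CFPD against CNT glands at 24 h, as it did with all 20 arrays in 1 fit and with the block and exchanged labels, and from 1 to 2 in CFPD against CNT glands at 48 h with the block, with labels as given or exchanged. That comparison had 0 with a filter on the mean, median centring or quantile normalization. Quantile normalization left 1 of 2 calls in CNT against NC glands at 48 h and averaged over both times, and exchanged labels gave 1 in place of 0 in CNT glands between the times. The block changed no other count by over 1.5 times. Leaving out 1 cow or array, the counts ranged from 0 to 2 in CNT against NC, CF against CNT, CFPD against CNT and treated against CNT glands at 24 h, from 0 to 2 in CNT against NC and CF against CNT, 0 to 1 in CFPD against CNT and 0 to 3 in treated against CNT glands at 48 h, and from 1 to 2 in the average. Without a cow or an array at 24 h, the lone array of a group is assumed to vary like the others. A call gained in such a fit is therefore no firmer result. Some differences that were never called changed sign when 1 cow or array was left out. For the bright MSR1 probe set at 24 h they ranged from -1.04 to 0.024 in CNT against NC, -1.53 to 1.31 in CFPD against CNT, -1.95 to 0.24 in CFPD against CF, -0.55 to 1.19 in treated against CNT and -0.96 to 0.58 in treated against NC glands, and at 48 h from -0.76 to 0.029 in CFPD against CF and -0.66 to 0.10 in treated against NC glands. For CD68 they ranged from -0.91 to 0.17 (24 h) and -0.31 to 0.59 (48 h) in treated against NC glands, -0.10 to 1.13 in CFPD against CF glands at 48 h, -1.43 to 0.32 in the time difference of the challenge response, and between the times from -0.29 to 0.68 in NC and -1.72 to 1.0 in CNT glands. For CSF1R they ranged from -0.10 to 0.19 in CFPD against CF glands at 24 h, -0.16 to 0.14 (24 h) and -0.17 to 0.11 (48 h) in treated against NC glands, and -0.12 to 0.72 in the time difference, where the weaker MSR1 probe set ranged from -0.017 to 0.68. No other setting reversed a direction. The exchange of labels of cows 2 and 5 was chosen after seeing the data, and an exchange for cows 1 and 4, planned under another numbering of the animals, was not run. Signals near the array median limit what MSR1 can show.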
